A study of Mus musculus with 6 samples.

Results

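Histone genes were read in poly(A) RNA from mouse brain cortex, sequenced directly as RNA on nanopore PromethION flow cells. The 3 KO libraries are labelled as Fmr1 knockout, Fmr1 being the gene of the RNA-binding protein FMRP, and the 3 WT libraries as wild type. The labels give the strain as C57BL/6 and no age, no allele and no count of animals behind a library, so the spread between libraries of a group may be technical. Members were all transcripts whose gene symbol begins with Hist1h to Hist4h, H1f, H2af or H3f3, which took in 91 of 52962 genes and 128 of 141196 transcripts. The 70 genes with Hist symbols (78 transcripts) are called replication-dependent here, and the 21 genes with H1f, H2af and H3f3 symbols (50 transcripts) replacement histones. The symbol rule also took in 7 processed pseudogenes, 1 unprocessed pseudogene and the antisense gene H3f3aos.

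Replication-dependent histone genes supply the bulk of histones while DNA is copied. Their mRNAs typically end a few bases after a conserved stem-loop, which binds the stem-loop binding protein SLBP, and carry no poly(A) tail. Replacement histones are made throughout the cell cycle from ordinary polyadenylated mRNAs and are the main supply of new histone in neurons, which no longer divide. Some replication-dependent genes also give polyadenylated mRNA in differentiated cells, by use of a poly(A) signal downstream of the stem-loop. Because the libraries were made from poly(A) RNA, histone mRNAs without a tail were not measured.

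The stem-loop was looked for in the annotated transcripts of GENCODE mouse release M21 (mm10) as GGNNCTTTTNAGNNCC on the transcript strand, anywhere along the transcript. It was found in 46 of 78 replication-dependent transcripts and in 1 of 50 replacement transcripts, against 124 of 141767 annotated transcripts (0.0875%). The forms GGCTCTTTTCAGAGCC (28 transcripts), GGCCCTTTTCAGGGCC (7) and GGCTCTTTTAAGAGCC (6) were the most frequent. The stem-loops below are those of the 6 genes with at least 10 reads in every library whose transcript holds one, with the stem-loop in capitals, 5 bases on either side, and the coordinates of the capitals. In the first 2, the annotated transcript ends soon after the stem-loop, and in the other 4 it runs on.
Hist2h2aa1 (chr3:96246032-96246047, plus strand): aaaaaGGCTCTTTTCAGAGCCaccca
Hist1h4h (chr13:23531458-23531473, plus strand): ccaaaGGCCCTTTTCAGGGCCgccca
Hist3h2ba (chr11:58949349-58949364, plus strand): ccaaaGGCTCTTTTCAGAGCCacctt
Hist1h1c (chr13:23739512-23739527, plus strand): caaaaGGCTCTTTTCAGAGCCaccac
Hist3h2a (chr11:58955172-58955187, plus strand): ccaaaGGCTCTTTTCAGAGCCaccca
H2afx (chr9:44335240-44335255, plus strand): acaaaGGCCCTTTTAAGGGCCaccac

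The last 30 bases of transcripts with a poly(A) hexamer close to the end are shown for the linker histones H1f0 and H1fx, for the replacement genes H2afv and H3f3a, and for the replication-dependent genes Hist1h1c and Hist3h2ba. Capitals mark the hexamer, AATAAA or ATTAAA, which was searched on the transcript strand in the last 50 bases. It was present there in 50.2% of 58797 annotated protein-coding transcripts.
Hist1h1c (chr13:23740338-23740367, plus strand): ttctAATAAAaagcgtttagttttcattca
Hist3h2ba (chr11:58949504-58949533, plus strand): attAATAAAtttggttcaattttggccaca
H1f0 (chr15:79030475-79030504, plus strand): aactttaaAATAAAactggaaaggaaaaaa
H1fx (chr6:87980421-87980450, minus strand): ctggggcgcAATAAAcggttccaaccttga
H2afv (chr11:6427229-6427258, minus strand): aAATAAAgaaactagcactagtgtgacaaa
H3f3a (chr1:180800832-180800861, minus strand): tgaaaaatAATAAAagtaccaatagaagaa

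Per transcript and library, the deposited table gives a mean poly(A) tail (in nt), the number of reads behind that mean (tail reads) and an abundance in RPM. Tail reads per library numbered 2404074 to 3540416 in KO and 3214196 to 3849077 in WT. Fmr1 (chrX:68678541-68717963, plus strand) had 10.9, 11.8 and 8.22 CPM in KO, against 41.7, 45.1 and 46.4 CPM in WT, where CPM is the count of tail reads per library total in edgeR, after TMM scaling. Its log2 change was -2.13 ± 0.15 (SE; edgeR adjusted p = 1.22e-10). No listed marker of neurons, astrocytes or oligodendrocytes was without reads, and astrocyte markers, for example, summed to 1231 to 1366 CPM in KO and 1268 to 1442 CPM in WT. Of 12 marker and pathway lists, the summed CPM of 4 marker lists did not overlap between genotypes. Choroid plexus markers summed to 13.5 to 27.4 CPM in KO and 33.9 to 835 CPM in WT, and vessel and meninges markers to 95.2 to 110.0 CPM in KO and 122 to 128 CPM in WT. Oligodendrocyte precursor markers summed to 23.2 to 24.5 CPM in KO and 26.1 to 29.2 CPM in WT, and neuron markers to 4720 to 4836 CPM in KO and 4505 to 4668 CPM in WT. The neuron markers Slc17a7, Syt1, Snap25 and Gad1 had log2 changes of 0.15, 0.12, 0.02 and -0.07, with none called.

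Replacement histones supplied most histone reads. Of 34783 histone tail reads, 29712 were from replacement genes and 5071 from replication-dependent genes. Reads came from 11 of 21 replacement genes and 45 of 70 replication-dependent genes, and 35 genes had no read in any library. The replacement reads were spread over the H3 family with 14237 reads, the H2A family with 11565 and the linker histone H1 family with 3910. Among replication-dependent reads, H2B genes had 2541 (50.1%), H2A genes 1482, H1 genes 653, H4 genes 227 and H3 genes 168. These are numbers of reads, not levels per length.

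A few genes held most of the replication-dependent reads. Hist1h2bc and Hist3h2a together had 57.1% of them, and with Hist3h2ba and Hist1h1c 83.8%. The largest replacement genes were H3f3a, H2afz, H3f3b and H1f0, with 76.3% of replacement reads. Histone genes lie on 12 chromosomes, and 57 of the 91 are on chromosome 13, which holds the large histone cluster, and those 57 gave 4097 of the reads. Every library held 10 or more tail reads of 16 genes, which were 6 replication-dependent and 10 replacement genes.

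How far a replication-dependent transcript is annotated past its stem-loop went with whether reads were found. The distances from the stem-loop to the annotated 3′ end ran from 3 to 74 bases in 22 transcripts and from 151 to 4884 bases in 24 transcripts, with none between. The limit of 100 bases between these sets was chosen after the distances were seen. All 24 transcripts that extend past the stem-loop had reads, 2995 in total. Most of these came from Hist3h2a with 1251, Hist3h2ba with 714 and Hist1h1c with 639. Others had very few, such as Hist1h1t and Hist2h4 with 1 read each over the 6 libraries. Of the 22 that end near the stem-loop, 11 had reads, 303 in total, of which Hist2h2aa1 had 150 and Hist1h4h 114. A hexamer stood in the last 50 bases of 13 of the 24 extended transcripts and 1 of the 22 short ones. The other 32 transcripts had no stem-loop match, and 15 of them had reads, 1773 in total, of which Hist1h2bc had 1647. Some of the 32 are annotated as very short, such as Hist1h4k at 312 nt and Hist1h2bn at 381 nt. A missing match therefore describes the annotated sequence, and whether the gene lacks a stem-loop was not tested.

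**Figure D1:**
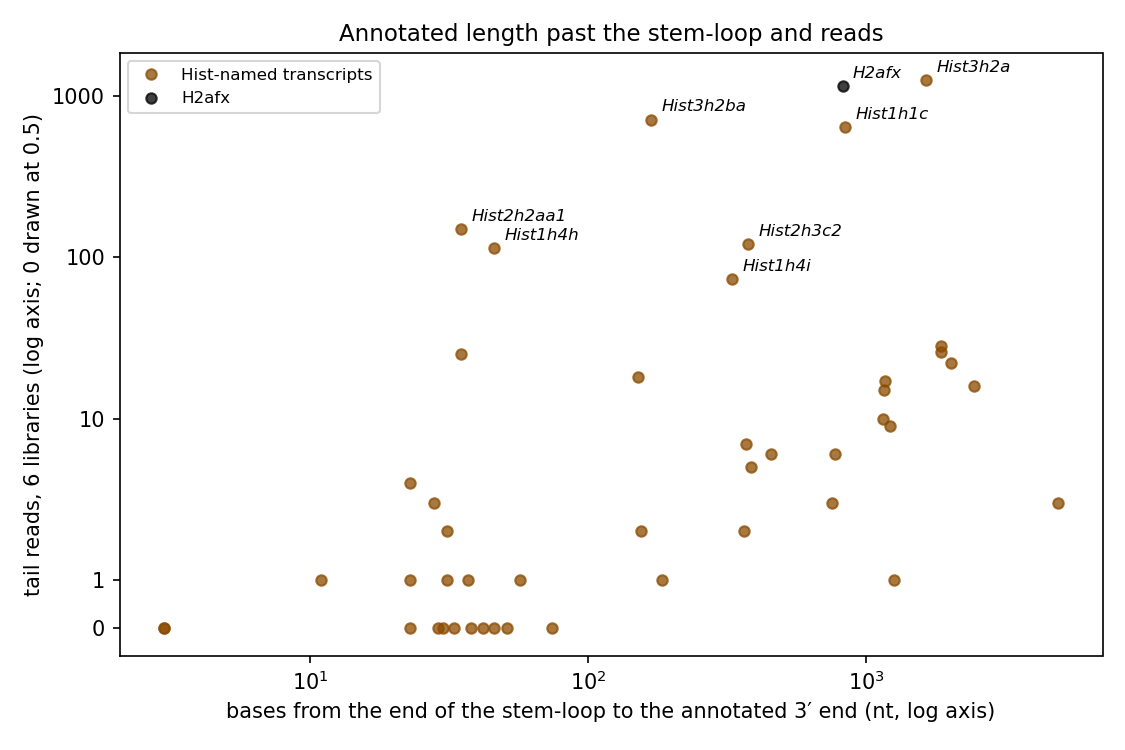
Each point is an annotated transcript that holds the stem-loop, with the number of bases from stem-loop to 3′ end on the log x axis and its tail reads summed over 6 libraries on the log y axis. The transcripts with over 600 reads (Hist3h2a, H2afx, Hist3h2ba, Hist1h1c) all run on for 169 bases or more, and every transcript with 0 reads ends within 74 bases.

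Several of these reads cannot be given to 1 gene with certainty. The share of 31-base stretches that also occur in another gene's transcripts was 89.7% for Hist2h2aa1, most often in Gm20634 and Hist2h2aa2. It was 50% for Hist1h4h, shared with other H4 genes, 37.2% for Hist3h2ba, 34.5% for H2afz, 33.7% for Hist1h2bc and 11.4% for Hist1h1c. Hist3h2a had 32.1%, shared most with the overlapping gene Trim17. It was 0 for H1f0, H1fx and both H2afy transcripts, and 8.86% for H2afx.

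Histone tails were short for this tissue. The median tail over 11323 genes with at least 10 reads in each library was 142 ± 2.16 nt in KO and 145 ± 2.67 nt in WT (SD, n = 3 each). Of the 16 histone genes, 14 or 15 lay below that median in each library. Over the 6 libraries, gene means ran between 89.1 ± 14.4 nt for Hist2h2aa1 and 150.3 ± 6.07 nt for Hist3h2a. Shorter transcripts had shorter tails across the 16168 transcripts tested (Spearman's rho = 0.56, over transcripts, which are not replicates), and rho was 0.54 over the 19 histone transcripts tested, and 0.26 over the 16 of these with 300 or more reads.

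**Figure D2:**
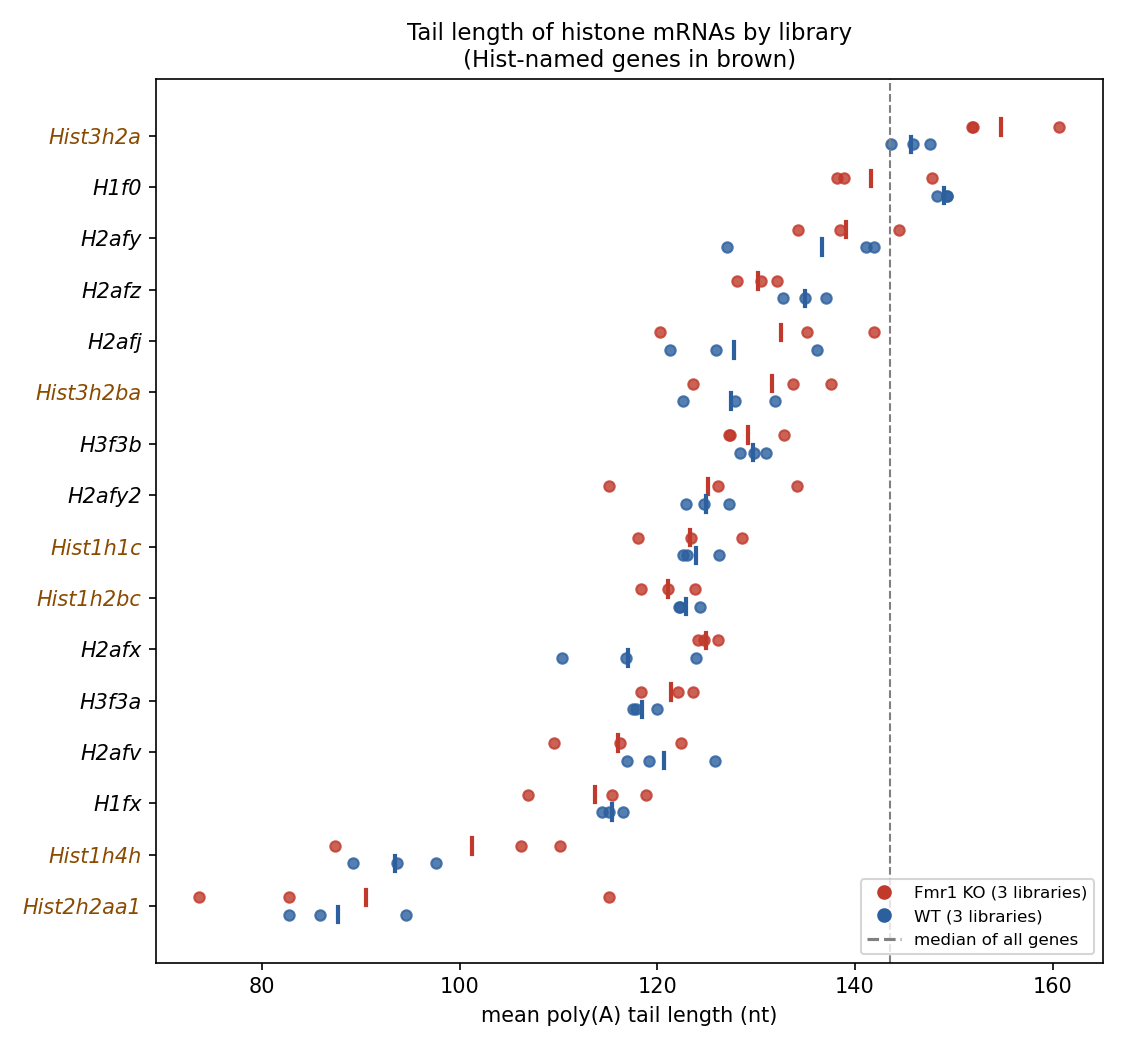
Mean poly(A) tail length in nt on the x axis for 16 histone genes, with 3 KO libraries above 3 WT libraries in each row, a vertical bar at each group's mean, and the median of all genes as a dashed line. Hist1h4h and Hist2h2aa1 lie apart at the short end, and Hist3h2a and H1f0 at the long end.

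Hist2h2aa1 and Hist1h4h, whose transcripts end 35 and 46 bases after the stem-loop, had the shortest tails of the 16 genes. Hist2h2aa1 (chr3:96245497-96246082, plus strand), a core H2A gene, had 115, 82.8 and 73.6 nt in KO, against 85.8, 82.8 and 94.6 nt in WT, on 17 to 39 reads per library. Hist1h4h (chr13:23531050-23531519, plus strand), a core H4 gene, had 110, 106 and 87.4 nt in KO, against 97.6, 89.2 and 93.7 nt in WT, on 16 to 21 reads. KO and WT overlapped for both, and KO replicate 1 was high in both. In WT they stood at percentiles 1.03 and 1.45 of all genes. Both transcripts are also short, at 586 and 470 nt. Among the 496 tested transcripts of 400 to 700 nt, whose median tail was 108 nt, 84 had a shorter tail than Hist2h2aa1 and 144 a shorter one than Hist1h4h. Hist3h2ba, of 614 nt, had a longer tail than 428 of those 496.

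Transcripts that extend past the stem-loop had longer tails, over all their reads, than those that end near it. The difference was smaller, but kept its direction, without Hist3h2a, Hist2h2aa1 and Hist1h4h. Transcripts ending near the stem-loop had a mean tail over their reads of 115, 93.4 and 85.5 nt in KO, against 95.3, 84.1 and 93.2 nt in WT. Transcripts that extend past it had 145, 135 and 141 nt in KO, against 134, 136 and 135 nt in WT. The extended transcripts had the longer mean tail in each of the 6 libraries, at 138 ± 4.64 nt against 94.4 ± 11.004 nt (SD, n = 6). The sets also differ in annotated transcript length. Transcripts with reads that end near the stem-loop are 397 to 586 nt long, and the extended ones 614 to 7425 nt. The part of length in the tail difference was not tested. Hist3h2a held 1251 of the 2995 reads of the extended set, and without it the set had 128 ± 4.56 nt (SD, n = 6), near the 124 and 130 nt of its members Hist1h1c and Hist3h2ba. This alternative was chosen after seeing the data. Without Hist2h2aa1 and Hist1h4h, the transcripts ending near the stem-loop had 39 reads and a mean tail of 98.6 ± 20.6 nt (SD, n = 6). Of these reads, 25 were given to Hist2h2aa2, whose 31-base stretches all occur in other genes. The transcripts ending near the stem-loop then ranged from 75.5 to 128 nt over libraries, and the extended set without Hist3h2a from 121 to 133 nt. These ranges overlapped, but within each library the transcripts ending near the stem-loop had the shorter mean, on 5 to 9 reads. The extended genes under 10 reads in a library ranged from 121 to 138 nt. Replication-dependent transcripts with no stem-loop match, most of whose reads are Hist1h2bc, had 124 ± 2.27 nt, and replacement transcripts 127 ± 1.83 nt (SD, n = 6). No test is given, since the sets were formed after earlier results of these data were known.

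**Figure D3:**
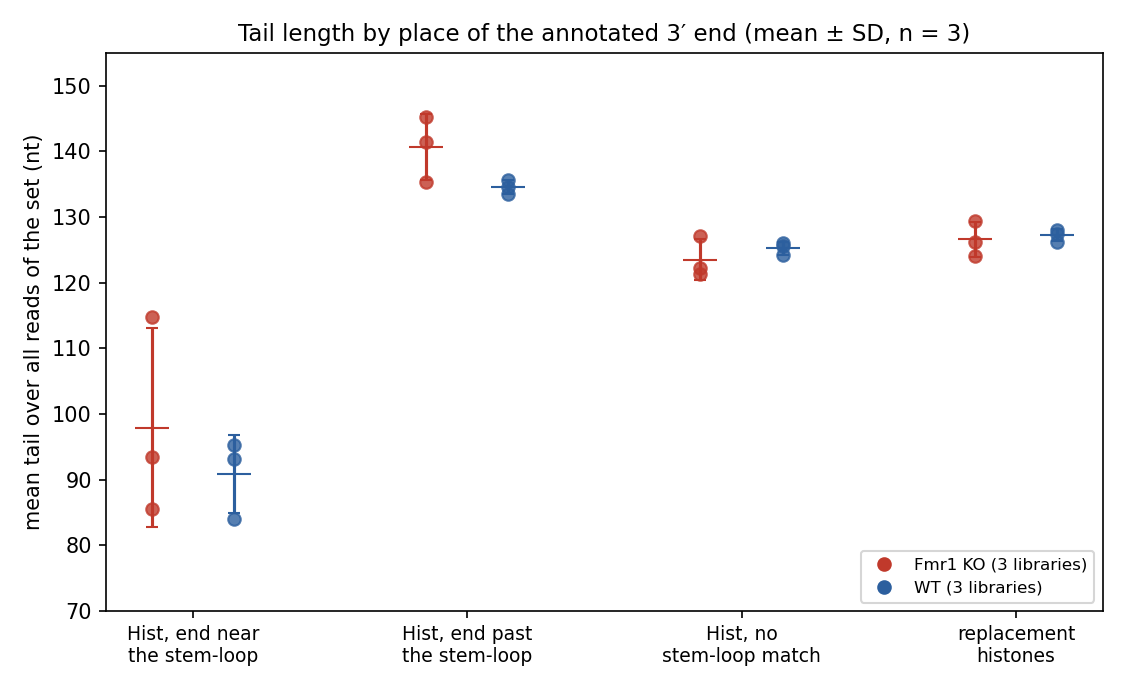
Mean tail over all reads of a set in nt, with KO left of WT in each set, points for libraries and bars for mean ± SD (n = 3). The y axis starts at 70 nt. Transcripts ending near the stem-loop lie at 84.1 to 115 nt, below every library of the other 3 sets.

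Taken as whole classes, replication-dependent and replacement histones had median tails a few nt apart. The median over 6 replication-dependent genes was 122 ± 3.995 nt in KO and 123 ± 1.65 nt in WT, and over 10 replacement genes 128 ± 3.78 nt in KO and 126 ± 0.67 nt in WT. The replication-dependent median minus the replacement median was 0.06, -7.50 and -10.2 nt in KO, against -2.91, -3.71 and -1.34 nt in WT, a mean of -4.26 ± 3.87 nt (SD, n = 6). When the mean over all reads of a class was used, the difference was +3.43 nt, so its sign depended on the summary. That mean gives most weight to Hist1h2bc and Hist3h2a.

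Of the other replication-dependent genes, Hist3h2a had a longer mean tail over the 6 libraries than any of the 10 replacement genes. The other 3 lay within their range. Against H1f0, Hist3h2a was longer in each KO library but shorter in each WT library, with WT means of 145.7 nt for Hist3h2a and 149.0 nt for H1f0. Hist3h2a (chr11:58954685-58956830, plus strand), an H2A gene, had 161, 151.9 and 151.8 nt in KO, against 146, 148 and 144 nt in WT. All 3 KO libraries were above all 3 WT libraries, but limma did not call the difference (adjusted p = 0.867). Hist3h2ba (chr11:58948920-58949533, plus strand), its H2B neighbour, had 134, 124 and 138 nt in KO, against 123, 128 and 132 nt in WT, and the groups overlapped. Hist1h2bc (chr13:23684199-23692908, plus strand), an H2B gene, had 124, 118 and 121 nt in KO, against 122.2, 122.3 and 124 nt in WT. Hist1h1c had 129, 118 and 123 nt in KO, against 123.0, 122.6 and 126 nt in WT. For the last 3 genes the KO values lay on both sides of the WT mean.

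The replacement linker histones differed from each other. H1f0 (chr15:79028450-79030504, plus strand), which encodes the linker histone H1.0 that accumulates in differentiated cells, had 138, 139 and 148 nt in KO, against 149.3, 148.3 and 149.3 nt in WT. All KO values were below all WT values, with log2 -0.07 ± 0.05 (SE), and limma did not call the difference (adjusted p = 0.886). H1fx (chr6:87980421-87981637, minus strand), another linker histone gene, had 107, 115 and 119 nt in KO, against 115, 117 and 114 nt in WT, with overlap. In every library the H1f0 tail was longer than the H1fx tail.

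Pairs of replacement genes that encode the same or a closely related histone had different tails. H3f3a (chr1:180800832-180813943, minus strand) and H3f3b (chr11:116021912-116027962, minus strand) both encode the variant H3.3, which is deposited outside DNA replication. H3f3a had 124, 118 and 122 nt in KO, against 117.6, 120 and 117.8 nt in WT. H3f3b had 127.4, 127.3 and 133 nt in KO, against 130, 128 and 131 nt in WT. H3f3a was shorter in 6 of 6 libraries, by -9.54 ± 3.35 nt (SD, n = 6, H3f3a minus H3f3b). A two-sided exact sign-flip permutation test gave p = 0.03125, the smallest that 6 libraries allow, and the same value after adjustment over the 3 pairs examined. Any 2 genes whose tails keep 1 order in all 6 libraries reach this p. How many other gene pairs do so was not tested, so the p shows nothing particular to these pairs. The members were also chosen with earlier results of these data known.

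H2afz (chr3:137864487-137866922, plus strand) and H2afv (chr11:6427229-6444443, minus strand) encode the 2 forms of H2A.Z, a variant found at promoters. H2afz had 131, 128 and 132 nt in KO, against 133, 135 and 137 nt in WT. H2afv had 116, 109.6 and 122 nt in KO, against 126, 119 and 117 nt in WT. H2afz minus H2afv was 14.2 ± 5.08 nt (SD, n = 6), above 0 in 6 of 6 libraries (exact permutation p = 0.03125, adjusted 0.03125). The H2afz tail did not overlap between genotypes, lower in each KO library, but limma did not call it for its 6412-read transcript (log2 -0.05 ± 0.04, adjusted p = 0.910).

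H2afy (chr13:56073619-56136361, minus strand) and H2afy2 (chr10:61738665-61784147, minus strand) encode the macroH2A proteins, H2A variants with a large extra domain. H2afy had 139, 134 and 144 nt in KO, against 127, 141 and 142 nt in WT. H2afy2 had 126, 115 and 134 nt in KO, against 125, 123 and 127 nt in WT. H2afy minus H2afy2 was 12.8 ± 6.17 nt (SD, n = 6), above 0 in 6 of 6 libraries, with 2.26 nt in WT replicate 1 (exact permutation p = 0.03125, adjusted 0.03125). Within each pair the genes differ in transcript length, and the part of length in these differences was not tested.

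The remaining replacement genes were H2afx and H2afj. H2afx (chr9:44334694-44336077, plus strand) encodes H2A.X, which is phosphorylated at DNA breaks, and is the replacement gene whose transcript holds the stem-loop, 822 bases before its end. Its tail was 126, 124.1 and 124.7 nt in KO, against 110.4, 123.9 and 117 nt in WT. It was higher in each KO library and had the lowest adjusted p of the histone transcripts (limma, 0.866). H2afj (chr6:136808244-136810074, plus strand), an H2A variant gene, had 120, 135 and 142 nt in KO, against 121, 136 and 126 nt in WT, with overlap.

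Isoforms with at least 10 reads in each library were compared for 3 genes. The 2841-nt H3f3a transcript had 8841 reads and a tail of 121 ± 2.54 nt in KO and 119 ± 1.23 nt in WT, and the 888-nt transcript had 117 reads and 109 ± 18.2 nt in KO and 107 ± 19.8 nt in WT (SD, n = 3 each). Of the short form's 31-base stretches, 62.8% occur in other genes. The H3f3b transcripts of 1993 nt and 2514 nt had 2657 and 2589 reads, with 129.3 ± 3.59 and 129.0 ± 4.73 nt in KO and 128 ± 1.29 and 131 ± 3.46 nt in WT. The H2afy transcripts of 2046 nt and 1933 nt had 936 and 465 reads, with 140 ± 4.57 and 139 ± 10.1 nt in KO and 135 ± 8.60 and 142 ± 12.3 nt in WT. In each pair and genotype, the isoform means differed by less than the larger of their SDs.

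Tail length did not pass the test between KO and WT for any of the histone transcripts. Limma on log2(mean tail + 1) called 0 of 19 histone transcripts, and 0 of 19 had an unadjusted p under 0.05. Over all 16168 transcripts it called 0.0%, with 944 at an unadjusted p under 0.05. Tails were shorter in KO for 9 of the 19 and longer for 10, against 58.8% shorter over all transcripts. The KO and WT libraries did not overlap for 4 of the 19 (H2afz and H1f0 lower in KO, Hist3h2a and H2afx higher), against 10.9% of all transcripts. The median log2 change was 0.01 over the 19 and -0.01 over all.

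In abundance, 1 histone gene changed. Hist1h1c (ENSMUSG00000036181, chr13:23738808-23740367, plus strand) encodes the linker histone H1.2, which binds DNA between nucleosomes. It had 29.5, 21.1 and 23.2 CPM in KO, against 36.5, 36.3 and 40.7 CPM in WT, a mean of 24.6 ± 4.36 CPM in KO and 37.8 ± 2.48 CPM in WT (SD, n = 3 each). The highest KO library was below the lowest WT library. Hist1h1c fell to 65.7% of WT (log2 -0.61 ± 0.13 SE; edgeR adjusted p = 0.0162), and it was the only one called of 20 histone genes tested. Over all 12543 genes, 1.03% were called with 0.454% called lower and 0.574% higher in KO. The counts behind it were 100, 50 and 79 tail reads in KO and 119, 133 and 158 in WT.

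The call for Hist1h1c did not hold without some libraries. Its adjusted p was 0.122 without KO replicate 2, 0.121 without KO replicate 3 and 0.0589 without WT replicate 3 (edgeR), with log2 changes of -0.76 to -0.52 over all 6 omissions. Over the other settings that gave one, adjusted p ran from 0.00116 to 0.0329 (edgeR and limma), while DESeq2 gave no adjusted p (unadjusted p = 0.00127). In RPM the gene had 27.4, 22.4 and 23.4 in KO, against 37.7, 36.8 and 40.0 in WT. In the authors' deposited table its log2 value was 0.60 ± 0.20 with p = 0.00282, where the sign is WT over KO if read from Fmr1, which is positive there. As a transcript it was the 1 called of 23 histone transcripts tested (edgeR, log2 -0.61, adjusted p = 0.0253), against 0.517% of 19933 transcripts.

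The tail of Hist1h1c differed by -0.61 nt between KO and WT means, with overlap. In bulk cortex, fewer cells of a type and less RNA per cell cannot be told apart. The choroid plexus, vessel and precursor marker sums given above were also lower in every KO library, and their part in the Hist1h1c value was not tested. In WT replicates 1 to 3 the choroid plexus sums were 433, 33.9 and 835 CPM, beside 36.5, 36.3 and 40.7 CPM of Hist1h1c. Ttr made up most of these sums, with 422, 28.4 and 821 CPM. Of the 2 choroid plexus markers tested, Ttr was called lower in KO (17.01 ± 6.31 CPM in KO and 424 ± 396 CPM in WT; edgeR adjusted p = 6.45e-05). The other, Clic6, varied less between WT libraries and was lower in each KO library, on 44 tail reads in all. It had 0.968 ± 0.456 CPM in KO and 3.24 ± 0.207 CPM in WT, and was not called (log2 -1.69, edgeR adjusted p = 0.0894). Of the 4 vessel and meninges markers, Igf2, a growth factor gene, was called lower (18.9 ± 1.29 CPM in KO and 30.6 ± 1.89 CPM in WT; edgeR adjusted p = 0.00679). The others were not called, with log2 changes of -0.27 for Pecam1, -0.22 for Cldn5 and 0.09 for Dcn.

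**Figure D4:**
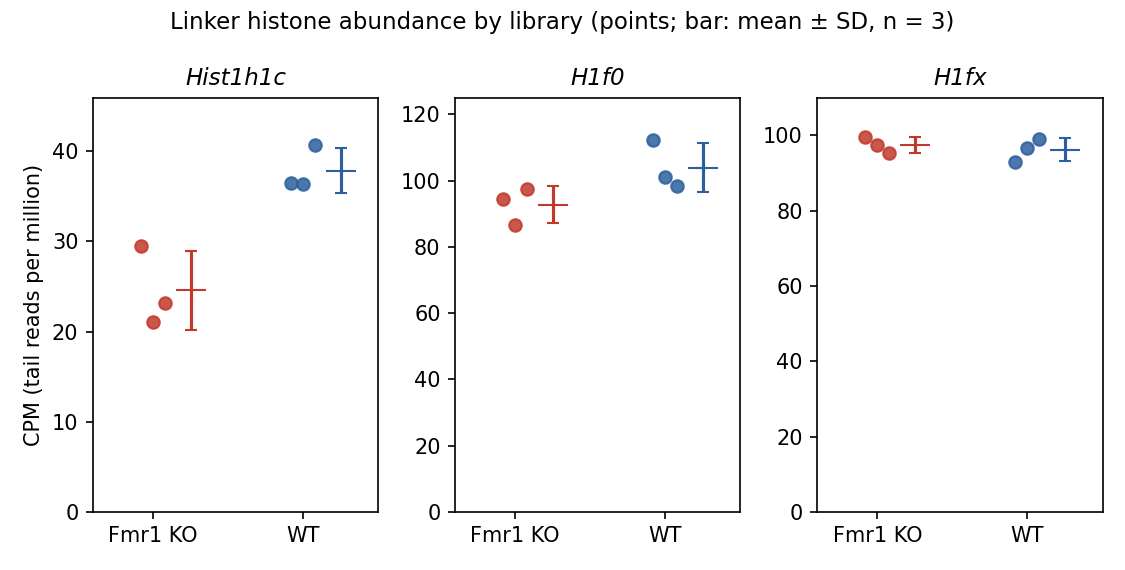
CPM of 3 linker histone genes, with the 3 KO libraries left of the 3 WT libraries in each panel, and mean ± SD (n = 3) beside the points. Each y axis starts at 0 and has its own scale. Hist1h1c lies at 21.1 to 29.5 CPM in KO and 36.3 to 40.7 CPM in WT, and H1fx overlaps.

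The replacement linker histones did not pass the test. H1f0 had 94.3, 86.5 and 97.4 CPM in KO, against 112, 101 and 98.4 CPM in WT, lower in each KO library (log2 -0.15 ± 0.08; edgeR adjusted p = 0.426). H1fx had 99.6, 97.4 and 95.4 CPM in KO, against 92.9, 96.7 and 98.9 CPM in WT, with overlap (log2 0.02 ± 0.07). The difference between the Hist1h1c and H1f0 changes was not tested.

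The other replacement genes had small positive values in KO that did not pass. H2afz had 351, 328 and 337 CPM in KO, against 326, 314 and 294 CPM in WT, higher in each KO library (log2 0.12 ± 0.06; edgeR adjusted p = 0.407). H3f3a had 470, 429 and 494 CPM in KO, against 409, 435 and 447 CPM in WT, with overlap (log2 0.11 ± 0.06). H3f3b had 273, 277 and 254 CPM in KO, against 238, 268 and 271 CPM in WT (log2 0.04 ± 0.07), and its sign changed without WT replicate 1. H2afv, H2afj, H2afx, H2afy2 and H2afy had log2 values of 0.14, 0.13, 0.11, 0.10 and 0.07. Thus 9 of 10 replacement genes had a log2 above 0, against 49.4% of all genes, with none called, and with limma on log2(RPM + 1) it was 7 of 10, against 39.6% of all genes, with H3f3b and H1fx below 0. The median over the 10 genes was 0.10, against -0.0028 over all genes.

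Of the replication-dependent genes, Hist1h2bc had 86.1, 86.5 and 87.2 CPM in KO, against 74.8, 84.4 and 77.3 CPM in WT, higher in each KO library (log2 0.13 ± 0.08; edgeR adjusted p = 0.519). Hist3h2a had 66.6, 62.0 and 65.1 CPM in KO, against 63.5, 59.53 and 59.50 CPM in WT (log2 0.09 ± 0.09). Hist3h2ba had 37.1, 35.0 and 37.9 CPM in KO, against 27.3, 38.5 and 37.6 CPM in WT (log2 0.08 ± 0.12). The groups of the last pair overlapped. Hist2h2aa1 and Hist1h4h had 4.72 to 9.14 CPM in KO and 5.21 to 10.05 CPM in WT, too few reads for a stable sign. The 10 replication-dependent genes tested had a median log2 of -0.12, with 5 above 0. Of all 20 histone genes, 14 were above 0 (10 without WT replicate 1, 12 with limma on log2(RPM + 1)), and in 4 the genotypes did not overlap (H2afz and Hist1h2bc higher in KO, H1f0 and Hist1h1c lower), against 17.3% of all genes.

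**Figure D5:**
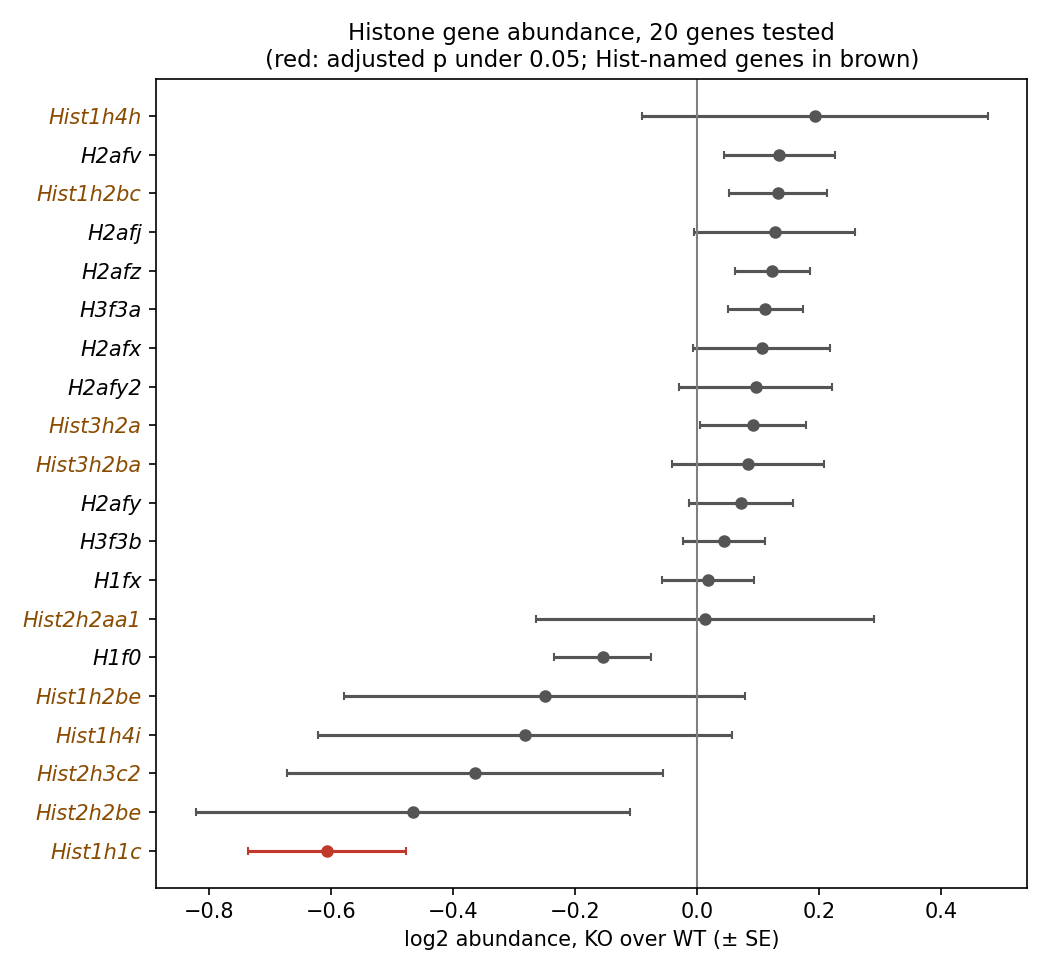
Log2 abundance of KO over WT with its standard error for the 20 histone genes tested, sorted by value, with Hist-named genes in brown. Hist1h1c, in red at -0.61, is the only gene past the threshold, and 9 of the 10 replacement genes lie right of 0 (7 of 10 with limma on log2(RPM + 1)).

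Genes just outside the minimum of 10 reads had few reads and wide errors. Hist1h4h and Hist2h2aa1, with lowest libraries of 16 and 17 reads, were just inside it. Hist2h3c2, Hist2h2be and Hist1h2be, each at 9 reads in the lowest library, and Hist1h4i, at 7, were just outside. Their tails were 121 ± 2.78, 176 ± 9.73, 148 ± 16.8 and 129 ± 14.7 nt in KO, against 117 ± 3.51, 152 ± 18.2, 150.3 ± 11.4 and 114 ± 7.21 nt in WT (SD, n = 3 each). Their log2 abundance values were -0.36, -0.47, -0.25 and -0.28, with standard errors of 0.31 to 0.36, and none was called. That of Hist2h2be was 0.18 with reads recovered from RPM.

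The 39 replication-dependent genes with reads but under the minimum had 556 reads in all. They made up 20.6, 25.8 and 24.97 CPM without TMM scaling in KO, against 32.0, 30.7 and 31.4 CPM in WT. In RPM they summed to 21.7, 25.8 and 24.3 in KO, against 27.02, 28.3 and 26.3 in WT. A low KO count itself puts a gene in this set, and Hist2h3c2, Hist2h2be, Hist1h2be and Hist1h4i, whose lowest count was reached in a KO library (for Hist2h2be also in WT replicate 2), gave most of its reads, so no difference between genotypes is read from these sums. Tail reads were 71.6 to 79.6% of the RPM-derived reads of these genes in KO and 87.4 to 102% in WT, and over all genes 74.8 to 77.3% in KO and 76.2 to 84.99% in WT. Since tail reads can exceed RPM-derived reads, this ratio is no share, and its part in the tail-read values was not tested. The antisense gene H3f3aos was the 1 replacement member with reads but under the minimum, with 18 reads.

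As a class, replication-dependent genes had 244, 245 and 247 CPM without TMM scaling in KO, against 248, 264.3 and 264.0 CPM in WT. In RPM the class had 240, 252 and 244 in KO, against 248, 260 and 257 in WT, and the groups overlapped. These sums do not show a change shared by the class, since 5 of its 10 genes tested had a log2 above 0. They include Hist1h1c, the only one called, with means of 24.6 CPM in KO and 37.8 CPM in WT after TMM scaling. Replacement genes had 1477, 1482 and 1526 CPM without TMM scaling in KO, against 1448, 1473 and 1475 CPM in WT. In RPM they had 1514, 1505 and 1549 in KO, against 1466, 1512 and 1497 in WT, also with overlap.

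No gene listed for processing or handling histones passed the abundance test. Of 11 tested genes for 3′ end processing of histone mRNA, 0 were called and 0 had an unadjusted p under 0.05 (edgeR), against 1.03% called over all genes. Sympk, a scaffold of the cleavage complex, had 46.9 ± 6.41 CPM in KO and 46.1 ± 6.74 CPM in WT, and Cstf2, a cleavage stimulation factor, 39.7 ± 0.09 CPM in KO and 41.7 ± 3.07 CPM in WT. Slbp, named here after its values were seen because its product binds the stem-loop, had 28.8 ± 4.29 CPM in KO and 31.7 ± 2.62 CPM in WT (SD, n = 3 each). Of 25 tested histone chaperones and exchange factors, 0 were called, and 6 had an unadjusted p under 0.05, against 12.9% of all genes. The nucleosome assembly genes with most reads, Nap1l5 and Nap1l1, had 395 ± 2.16 and 243 ± 2.82 CPM in KO and 412 ± 32.6 and 230 ± 6.81 CPM in WT.

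Few markers of dividing cells could be tested. Of 15 listed, 5 had enough reads to be tested, 0 were called (edgeR, and 0 at an unadjusted p under 0.05), and the summed list had 108 to 114 CPM in KO and 111 to 118 CPM in WT. Pcna, the replication clamp, made up most of it, with 72.3 ± 1.32 CPM in KO and 72.5 ± 0.45 CPM in WT, and Mcm7, a subunit of the replicative helicase, had 8.54 ± 0.32 CPM in KO and 7.97 ± 0.32 CPM in WT (SD, n = 3 each). The other 3 tested are helicase subunits too, named after their values were seen. Mcm5 had 4.43 ± 1.03 CPM in KO and 6.28 ± 0.37 CPM in WT, lower in each KO library (log2 -0.52 ± 0.29 SE; edgeR adjusted p = 0.466). Mcm6 had 4.85 ± 1.31 CPM in KO and 6.63 ± 0.54 CPM in WT (log2 -0.50 ± 0.28), and Mcm4 7.43 ± 2.64 CPM in KO and 6.83 ± 0.76 CPM in WT (log2 0.11 ± 0.27), both with overlap.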

How the data were processed

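Per the file headers, the deposited table gave mean tails in nt (a signal), counts of reads behind each mean, and RPM, per transcript and library. What estimated the tails is not stated in the labels or headers. Named in the submitters' processing notes, without roles, are mm10, Salmon 1.5.2, minimap2 2.17, SAMtools 1.9 and DESeq2. The authors' deposited comparison (DESeq2, per the file headers) holds log2 fold changes, standard errors, test scores and p-values, and the header names no direction.

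Members and lists were chosen with earlier results of these data known. All 128 member transcripts matched GENCODE M21. Whole reads could be recovered from RPM (tolerance 0.01) for 99.9% of the WT replicate 1 values and 100% of all others. The count behind a mean exceeded those recovered reads for 14.6 to 25.2% of transcripts with tail reads, so the ratio of both is no share.

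Tails were tested with limma 3.58.1 on log2(mean + 1) for 16168 transcripts with at least 10 reads in each library. Counts, summed per gene, were tested with edgeR 4.0.16 (TMM, filterByExpr, quasi-likelihood) over 12543 genes, with Benjamini-Hochberg adjustment over all features and a threshold of 0.05. Both fits were also run on simulated data, whose recovery rates are not given here, so no result is read from that run. A gene's tail is the read-weighted mean of its transcripts. Named genes were Fmr1, the histone genes with at least 10 reads per library, and those next to that minimum. Of each list, up to 4 past the threshold were named, or else up to 2 with most reads. Named beyond this rule were some histone genes under the minimum, Slbp, Mcm4, Mcm5 and Mcm6. Further markers of neurons, of vessels and meninges, and of choroid plexus were also named beyond it. Stated alternatives included DESeq2 1.42.0, other minima, pseudocounts and scalings, and leaving out each library. Few reads limit the precision of low members, and tails without poly(A) are outside the assay.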

Additional observations from a re-analysis of the deposited data

How the results depend on the processing

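The tail test called 0 histone transcripts under every alternative run (minimum 3 or 30 reads, pseudocount 0 or 10, centring, read weights, replicate block, each library left out). The count of histone genes called for abundance was 1 and became 0 with DESeq2, which gave no adjusted p for Hist1h1c, and ranged from 0 to 1 over libraries left out, for transcripts too. Calls over all genes numbered 129, against 249 with no filter, 40 with limma on log2(RPM + 1) and 57 to 206 over libraries left out, and over all transcripts 103, against 180 with no filter, 171 with the replicate block and 44 to 163 over libraries left out. Tail read weights called 22 transcripts of all 16168. Deviations of same-numbered KO and WT samples had correlations of -0.07 to 0.05 in abundance and 0.00 to 0.02 in tail. Pairs of unlike number ran from -0.10 to 0.07 in abundance. With 3 libraries per group, these correlations cannot show whether same-numbered samples share more than a number. With the replicate block the counts of histone calls were 0 for tails, 1 for genes and 1 for transcripts, Hist1h1c had log2 -0.62 (edgeR adjusted p = 0.0277), and 92 genes were called in all.

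The class difference in tail turned to 3.43 nt with the mean over all reads, was -0.42 nt at a minimum of 30 reads, and ranged from -4.85 to -3.08 nt over libraries left out. H3f3a minus H3f3b was -7.81 nt in KO only, -11.3 nt in WT only and -10.7 to -8.81 nt over libraries left out. H2afz minus H2afv was 14.2 nt in KO only, 14.2 nt in WT only and 13.03 to 15.7 nt over libraries left out. H2afy minus H2afy2 was 13.96 nt in KO only, 11.7 nt in WT only and 11.6 to 14.9 nt over libraries left out. Each direction held, but 3 libraries cannot give an exact p below 0.25, nor 5 below 0.0625.

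Log2 abundance changed sign for uncalled genes. With limma on log2(RPM + 1) it was -0.0093 for H3f3b, -0.014 for H1fx, -0.026 for Hist3h2ba and 0.20 for Hist2h2be, and with reads recovered from RPM -0.0052 for Hist3h2ba and 0.18 for Hist2h2be. Over libraries left out it ranged from -0.011 to 0.085 for H3f3b, -0.0043 to 0.040 for H1fx, -0.041 to 0.21 for H2afx, -0.046 to 0.17 for Hist3h2ba, -0.17 to 0.31 for Hist2h2aa1 and -0.058 to 0.37 for Hist1h4h. Log2 tail changes near 0 also turned. Centred on the sample median, Hist1h1c had 0.012 and H2afy2 0.019, and with read weights Hist1h1c had 0.0037 and H2afy2 0.0076. Over libraries left out they ranged from -0.0071 to 0.031 and -0.045 to 0.0077 for the H3f3b transcripts of 1993 and 2514 nt, -0.054 to 0.021 for H1fx, -0.0016 to 0.12 for H2afj, -0.038 to 0.023 for Hist1h1c, -0.052 to 0.057 for H2afy2, -0.098 to 0.028 for the H2afy transcript of 1933 nt, -0.16 to 0.15 for Hist2h2aa1 and -0.13 to 0.13 for the 888-nt H3f3a transcript. The cause was not tested. Genes with under 40 reads per library, such as Hist2h2aa1 and Hist1h4h, are limited by depth.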
